A study of Mus musculus with 9 samples.

Results

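The Schlafen genes Slfn1, Slfn2, Slfn3, Slfn4, Slfn5, Slfn8 and Slfn9 were followed in primary mouse microglia treated with the TLR7 agonist R848, with IFN-α or with both. They were chosen by gene symbol, make up 7 of the 24411 gene rows, and all 7 passed the filter on low counts. The microglia, resident macrophages of the brain, came from whole brains of 3-day-old ICR mice. Mixed glia were grown for about 2 weeks, and the cells shaken off were plated for 24 h and treated for 4 h. The 3 groups of 3 libraries received 1 µM R848 (resiquimod), 100 U/ml recombinant mouse IFN-α, or both agents at these doses. An untreated group that the design names is not analysed here, so every difference below is between treatments. Nothing in the labels ties replicates to separate cultures or litters, so the p-values speak to spread among these 9 libraries, part of which may be technical.

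Schlafen proteins, named after the German verb for sleeping, were first described as regulators of growth and quiescence in mouse thymocytes. They share an N-terminal core that in several members binds or cuts transfer RNA. Short members consist of little more than this core, intermediate members carry an added linker domain, and long members also carry a helicase-like C-terminal part. Type I interferon binds a receptor made of Ifnar1 and Ifnar2, the kinases Jak1 and Tyk2 phosphorylate STAT proteins, and these join Irf9 to bind interferon-stimulated response elements (ISRE) in promoters. R848 acts through TLR7, whose adaptor chain leads to NF-κB.

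The 7 genes lie side by side on chromosome 11 in GENCODE release M21 (GRCm38, the assembly that mm10 names), in a stretch of 263806 bp from 82951349 to 83215154. Slfn5 lies on the plus strand at 82951349-82964840. Slfn9 (82978390-82991830) and Slfn8 (83002158-83020810) lie next to it on the minus strand. The pseudogene Slfn10-ps follows at 83028130-83040042 on the same strand. Slfn2 (83065112-83070678), Slfn1 (83116849-83122670), Slfn4 (83175186-83190216) and Slfn3 (83191330-83215154) are all on the plus strand. Slfn1 and Slfn2 are the short members, with coding lengths of 1011 and 1134 bases. Slfn3 and Slfn4 are intermediate, with 1920 and 1806 bases. Slfn5, Slfn8 and Slfn9 are long, with 2652, 2730 and 2730 bases.

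Within these classes some members are close copies. Aligned coding sequences were 92.7% identical for Slfn3 and Slfn4, 92.7% for Slfn8 and Slfn9, 72.3% for Slfn1 and Slfn2, and 64.4% for Slfn5 with either Slfn8 or Slfn9. The files count only reads that map to 1 place, so the share of each gene's 101-base words (the read length) that recur exactly in another annotated transcript was taken as a measure of what copies could cost. It was 3.64% for Slfn9 and 3.27% for Slfn8, mostly shared with Slfn10-ps and with each other, and 2.87% for Slfn3, mostly shared with a predicted pseudogene. It was 0.222% for Slfn4, 0.207% for Slfn5, 0.0639% for Slfn2 and 0% for Slfn1. Slfn3 and Slfn4 share no such word with each other. Reads of Slfn8, Slfn9 and Slfn3 are therefore the most exposed to loss through copies, and a read that differs from its copy by a single base could still be misplaced.

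Promoter stretches are shown for the 3 members with an ISRE match, for Slfn2, whose pattern over the treatments differed from theirs, and for Slfn4, which differed most between both agents and IFN-α. They are RefSeq promoters on GRCm38.p6, written 5′ to 3′ on the gene's strand and ending just before the RefSeq start, for Slfn8 the first of 2. The Slfn5 stretch instead stops before another annotated exon, and it lies inside the GENCODE span of that gene, which begins at 82951349. Capitals mark a match to the ISRE pattern in Slfn5, Slfn8 and Slfn9, and in Slfn2 a match to the ETS-IRF composite pattern (EICE). The Slfn4 stretch holds neither.
Slfn5 (chr11:82951852-82951984, plus strand): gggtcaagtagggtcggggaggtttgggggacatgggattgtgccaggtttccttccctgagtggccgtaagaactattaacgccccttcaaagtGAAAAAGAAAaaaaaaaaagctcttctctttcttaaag
Slfn8 (chr11:83020811-83020910, minus strand): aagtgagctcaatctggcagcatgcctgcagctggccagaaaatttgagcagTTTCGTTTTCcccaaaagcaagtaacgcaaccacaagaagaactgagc
Slfn9 (chr11:82991831-82991930, minus strand): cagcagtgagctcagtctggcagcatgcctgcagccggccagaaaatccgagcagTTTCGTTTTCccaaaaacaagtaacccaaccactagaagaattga
Slfn2 (chr11:83065012-83065111, plus strand): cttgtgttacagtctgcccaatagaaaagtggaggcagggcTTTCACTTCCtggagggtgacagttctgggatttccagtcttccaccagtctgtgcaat
Slfn4 (chr11:83175086-83175185, plus strand): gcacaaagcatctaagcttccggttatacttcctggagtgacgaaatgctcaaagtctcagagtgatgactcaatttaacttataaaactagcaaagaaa

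All 7 members had a promoter in the RefSeq table, searched over 300 bases, from 250 before to 50 after the start, on both strands. The ISRE was searched as GAAA, any 2 bases, then GAAA. Counted from the RefSeq start, it matched at -155 in Slfn5, at -48 in Slfn8 and at -45 in Slfn9, and in 3.44% of 32851 promoters. From the second RefSeq start of Slfn8 the same match lay at -136. The matched bases are the same in Slfn8 and Slfn9, whose 250 bases before the start were identical at 82.4% of positions when aligned. The EICE was searched as GGAA, any 2 bases, then GAAA, which ends like the ISRE pattern. It matched at -59 in Slfn2, on the minus strand, and in 2.72% of all promoters. The STAT pattern TTCNNNGAA matched no member (8.30% of promoters). The NF-κB pattern, GGGA, any 4 bases, then CC, matched Slfn9 alone at -214 (20.7% of promoters), and the PU.1 pattern GAGGAA matched Slfn9 alone at -170 (28.3%). None of these letters occurred in the windows of Slfn1, Slfn3 and Slfn4. For comparison, 14 of 23 interferon-stimulated reference genes with a promoter in the table held the ISRE letters, and none of 18 genes of the TLR7 and NF-κB response did. Both lists were chosen with earlier results of these data known. A match describes letters in a window and is not a measured binding site.

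Gene counts per library ranged from 2505941 to 6005578, and the combined-treatment replicate 3 was the deepest. Levels are normalised read counts, as CPM on TMM-scaled totals. Differences are log2 fold changes ± SE from edgeR's quasi-likelihood F test fitted to 11002 genes. A gene was called where its Benjamini-Hochberg adjusted p over all of them was under 0.05. Microglia marker genes summed to 1911 to 3506 CPM per library, and 11 astrocyte markers summed to 1320 to 3661 CPM, so the RNA cannot be assigned to microglia alone. In bulk RNA, fewer cells of a type and less RNA per cell cannot be told apart.

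With IFN-α, 6 of the 7 Schlafen genes were higher than with R848, and adding IFN-α to R848 raised all 7. Between the single agents 6 members were called lower with R848, where 19.0% of all genes tested were called lower. No member was called higher there, where 18.4% of all genes were, and no member had a positive log2 fold change. Between both agents and R848 all 7 were called higher, where 19.2% of all genes were. Adding R848 to IFN-α gave smaller and less uniform differences: 6 members were called higher and Slfn5 was not, where 18.5% of all genes were called higher. The median log2 fold change of the members was -4.26 for R848 against IFN-α (0.02 over all genes), 4.35 for both agents against R848 (-0.03) and 0.78 for both agents against IFN-α (-0.01). Slfn1, with no count under R848, lies beyond the median of either comparison with R848 at its bound as well. The first 2 comparisons share the R848 libraries, and each pair of comparisons shares a group. Libraries of the groups did not overlap for 7 of 7 members between R848 and IFN-α (23.4% of all genes were lower without overlap), for 7 between both agents and R848 (22.6% higher) and for 6 between both agents and IFN-α (24.0% higher). Slfn1 and Slfn3 reached the filter's level of 3.52 CPM in no R848 library and Slfn4 in 1 of 3, so these passed through the groups with IFN-α.

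**Figure D1:**
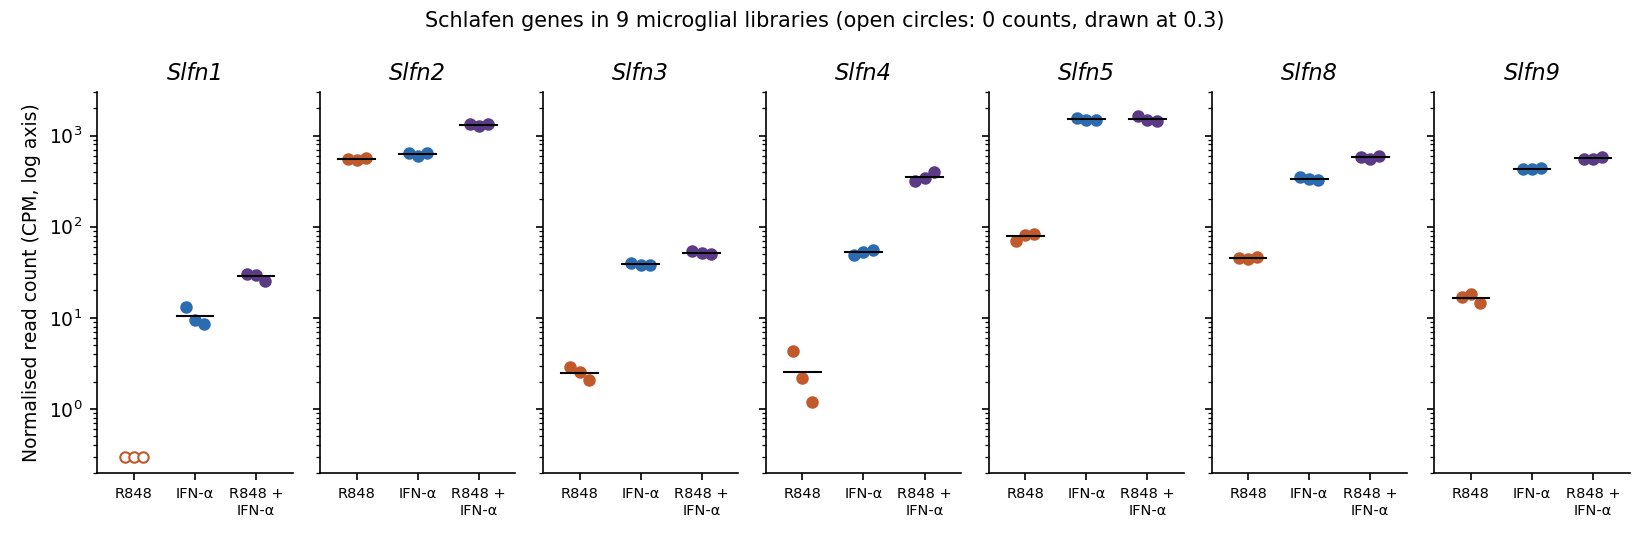
Normalised read counts (CPM, log axis) of the 7 Schlafen genes in each of the 9 libraries, with a line at each group mean and open circles for 0 counts. R848 libraries lie below the others for each of the 7 genes, Slfn2 is at 536.6 CPM or more in every library, and Slfn4 shows the widest gap between IFN-α and both agents.

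Slfn2, a short member needed for T cell and monocyte quiescence in mice and known to shield transfer RNA from cleavage, was the main Schlafen transcript under R848. Its level was 551.9, 536.6 and 565.7 CPM in the R848 libraries, 648.1, 597.5 and 639.2 CPM with IFN-α, and 1325, 1266 and 1327 CPM with both. The combined libraries lay above all others, and the R848 libraries lay just below those with IFN-α. Both agents gave 2.37-fold the R848 level (log2 1.24 ± 0.08, adjusted p = 3.91e-14 by edgeR) and 2.08-fold the IFN-α level (log2 1.06 ± 0.08, adjusted p = 2.49e-12). Between the single agents the difference missed the threshold (log2 -0.19 ± 0.08, 95% interval -0.35 to -0.03, edgeR adjusted p = 0.0591). It passed in 6 of 19 alternative analyses, among them DESeq2 (adjusted p = 0.0398). It missed in the others, with an edgeR adjusted p of up to 0.55, reached with library totals alone (log2 -0.11).

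Slfn1, the other short member, which slows thymocyte growth when overexpressed, had no count in any R848 library. It had 34, 26 and 27 counts in the IFN-α libraries (13.2, 9.42 and 8.59 CPM) and 82, 68 and 127 counts with both agents (30.6, 29.4 and 25.5 CPM). The 3 groups did not overlap. Against a floor of 3 counts over the R848 group, which equals 0.30 CPM, Slfn1 was at least 34.6-fold higher with IFN-α and at least 95.0-fold higher with both agents. Both agents gave 2.74-fold the IFN-α level (log2 1.45 ± 0.21, adjusted p = 1.91e-06 by edgeR), with a 95% interval of 2.04 to 3.67-fold.

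Slfn4, an intermediate member found in activated macrophages and other myeloid cells, had the largest difference between both agents and IFN-α among the 7. Under R848 it had 15, 7 and 4 counts (4.34, 2.21 and 1.19 CPM). It reached 49.2, 52.5 and 56.0 CPM with IFN-α and 320.1, 340.7 and 401.2 CPM with both agents, so the groups were far apart. The level with both agents was 6.74-fold that with IFN-α (log2 2.75 ± 0.12, 95% interval 5.65 to 8.03-fold, adjusted p = 1.55e-17 by edgeR). R848 against IFN-α gave log2 -4.32 ± 0.23, and both agents against R848 gave 7.07 ± 0.19. The values against R848 depend on R848 replicate 1, the highest of its group: without it they were -4.95 and 7.70.

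Slfn3, the intermediate neighbour of Slfn4, was studied mainly in T cells and intestinal epithelium. It had 10, 8 and 7 counts with R848 (2.89, 2.53 and 2.07 CPM), 40.3, 37.7 and 38.2 CPM with IFN-α and 54.5, 51.4 and 49.9 CPM with both agents. It was thus close to Slfn4 with either single agent and far below it with both. IFN-α gave 15.2-fold the R848 level (log2 for R848 against IFN-α -3.93 ± 0.21, adjusted p = 9.02e-16 by edgeR), and both agents gave 20.4-fold. Between both agents and IFN-α the difference was 1.34-fold (log2 0.42 ± 0.13, adjusted p = 0.0146 by edgeR). That call was lost with DESeq2 (adjusted p = 0.0510), with library totals alone (log2 0.11, adjusted p = 0.580), and without IFN-α replicate 2 (0.0537), IFN-α replicate 3 (0.0517) or combined replicate 1 (0.0528).

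Slfn5, a long, nuclear member whose human counterpart restricts herpes simplex virus, was the most abundant Schlafen transcript by counts wherever IFN-α was present. It was at 70.0, 81.0 and 83.2 CPM with R848, at 1539, 1467 and 1489 CPM with IFN-α, and at 1636, 1474 and 1459 CPM with both. IFN-α and combined libraries overlapped, and the R848 libraries lay far below. IFN-α gave 19.2-fold the R848 level (log2 for R848 against IFN-α -4.26 ± 0.10, adjusted p = 2.38e-25 by edgeR), and both agents gave 19.5-fold. Between both agents and IFN-α the log2 difference was 0.02 ± 0.08 (edgeR adjusted p = 0.859), and its sign flipped with upper-quartile scaling, with library totals alone and without combined replicate 1. The 95% interval of that difference was 0.906 to 1.14-fold (log2 -0.142 to 0.189), and it holds for TMM scaling only. With library totals alone the log2 difference was -0.283, outside that interval, under a scaling that also lowered the median of all genes. The interval therefore does not bound what another scaling could give.

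Slfn8, a long member related to the human RNA-cutting Schlafens, was at 45.7, 44.0 and 47.1 CPM under R848, 347.7, 334.6 and 324.7 CPM with IFN-α and 584.9, 558.4 and 588.6 CPM with both agents. All 3 groups were separate. IFN-α gave 7.35-fold the R848 level (log2 for R848 against IFN-α -2.88 ± 0.10, adjusted p = 3.28e-21 by edgeR), the smallest such ratio after that of Slfn2. Both agents gave 1.72-fold the IFN-α level (log2 0.78 ± 0.08, 95% interval 1.53 to 1.93-fold, adjusted p = 4.08e-09 by edgeR).

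Slfn9, the close copy of Slfn8, was at 17.1, 18.4 and 14.5 CPM under R848, 424.7, 433.5 and 441.4 CPM with IFN-α and 550.2, 556.7 and 581.7 CPM with both agents. Its groups were also separate, with a much lower level under R848 than that of Slfn8. IFN-α gave 26.0-fold the R848 level (log2 for R848 against IFN-α -4.70 ± 0.11, adjusted p = 7.79e-25 by edgeR), and both agents gave 33.8-fold. Both agents gave 1.30-fold the IFN-α level (log2 0.38 ± 0.08, adjusted p = 0.000542 by edgeR). With library totals alone this last difference was 0.06 and not called (adjusted p = 0.703).

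**Figure D2:**
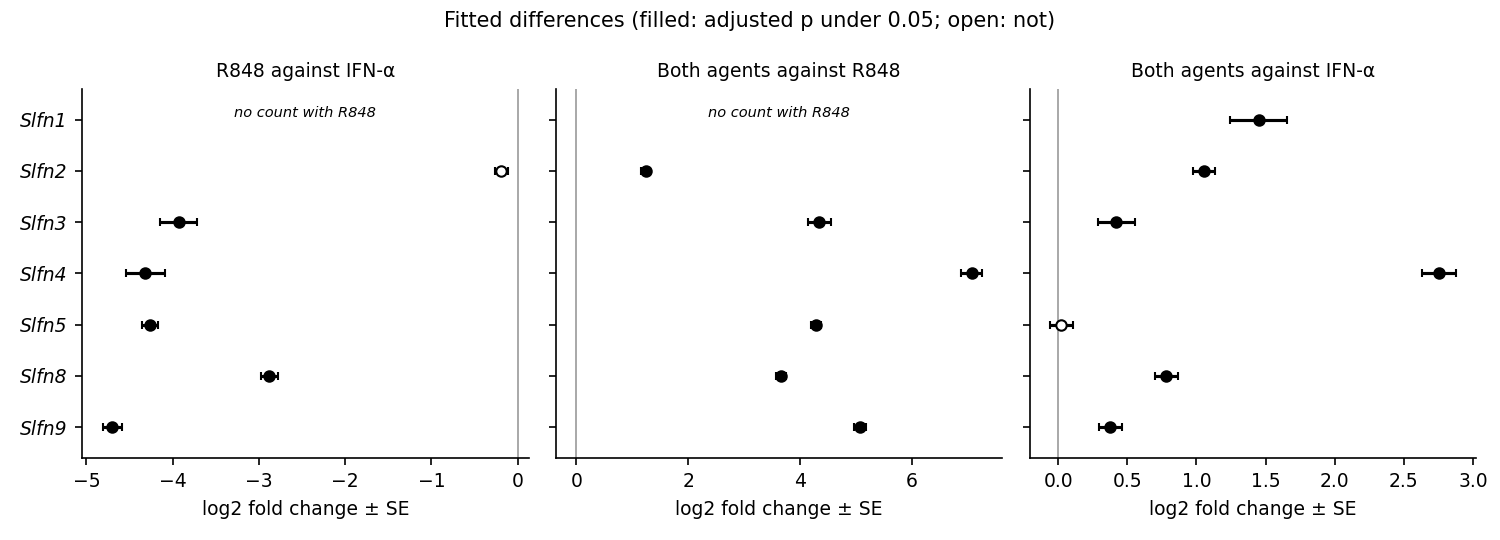
Fitted log2 fold changes with SE for the 7 Schlafen genes in the 3 comparisons, filled where the adjusted p was under 0.05 and open where not; Slfn1 is not plotted against R848, where it had no count. Slfn2 sits near 0 between the single agents, and Slfn5 sits at 0.02 between both agents and IFN-α. Of the genes plotted, Slfn4 is farthest from 0 in both comparisons of the combined treatment.

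A stricter reading asked which members were higher with both agents than with each single agent, taking the larger of the p-values against R848 and IFN-α. This held for 6 members, where 7.33% of all genes met it, and Slfn5 did not meet it. The smaller of both log2 differences was 2.75 for Slfn4, 1.45 for Slfn1, 1.06 for Slfn2, 0.78 for Slfn8, 0.42 for Slfn3 and 0.38 for Slfn9. For Slfn3 the adjusted p of this test was 0.0387. The count was 4 with library totals alone, without Slfn3 and Slfn9. No test of additivity was possible, since that needs untreated cells.

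The close copies differed in their balance within each library, which does not depend on the scaling of totals. These ratios were chosen after the levels had been seen. With 3 libraries against 3, the exact two-sided permutation test cannot go below p = 0.1, which is 0.113 after adjustment over the 9 ratio comparisons. The count ratio of Slfn4 to Slfn3 was 1.5, 0.875 and 0.571 with R848 and 1.22, 1.39 and 1.47 with IFN-α, which overlap (exact permutation p = 0.4). It was 5.87, 6.63 and 8.04 with both agents, above all 6 others, and both exact permutation tests against the single agents reached the smallest p. On the log2 scale the mean was 2.76 ± 0.23 (SD, n = 3) with both agents and 0.44 ± 0.14 with IFN-α.

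The ratio of Slfn8 to Slfn9 counts took separate ranges under the 3 treatments. It was 2.68, 2.40 and 3.25 with R848, 0.819, 0.772 and 0.736 with IFN-α, and 1.06, 1.00 and 1.01 with both agents. Slfn8 thus had more counts than Slfn9 under R848 and fewer under IFN-α, and under both agents the counts were nearly equal. Equal counts are not equal levels, since the annotated exons span 4091 bases in Slfn8 and 5965 in Slfn9. Per kb of exon Slfn8 was above Slfn9 with R848 (11.2 and 2.79 CPM), IFN-α (82.0 and 72.6) and both agents (141.1 and 94.4). The ratio of Slfn9 to Slfn5, the adjacent long members, was 0.244, 0.227 and 0.174 with R848, 0.276, 0.296 and 0.297 with IFN-α and 0.336, 0.378 and 0.399 with both agents. For Slfn8 to Slfn9 and Slfn9 to Slfn5 each of the 3 comparisons reached the smallest exact permutation p.

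**Figure D3:**
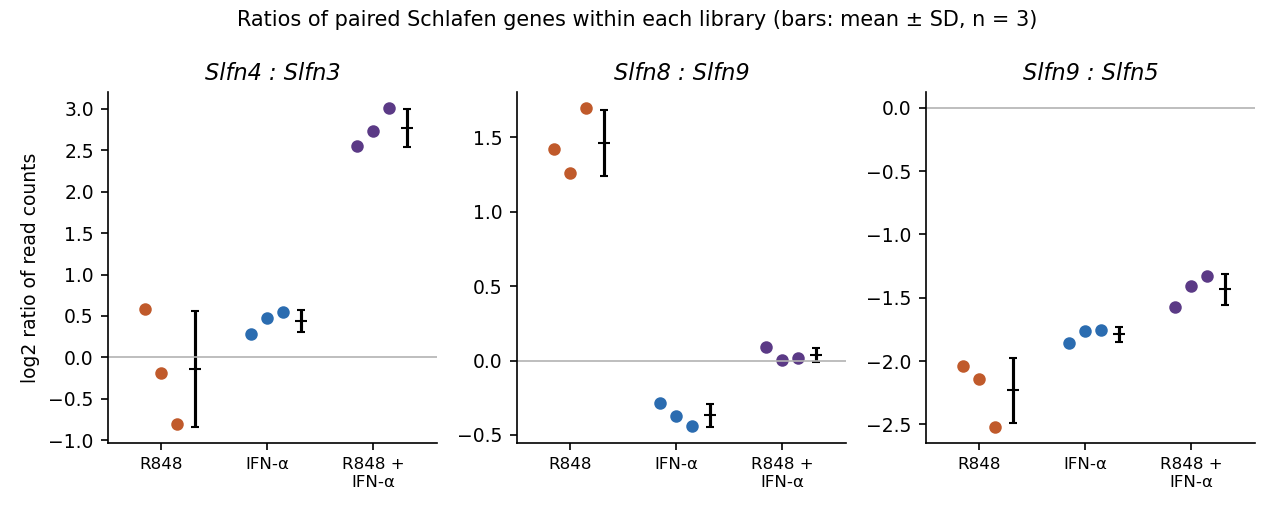
Log2 ratios of read counts within each library for 3 pairs of Schlafen genes, with points for libraries and bars for mean ± SD (n = 3). Slfn4 to Slfn3 has a mean of 2.76 with both agents against 0.44 with IFN-α, while Slfn8 to Slfn9 is highest with R848, at a mean of 1.46.

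Together the 7 genes held 696.8 ± 15.2 CPM with R848, 2997 ± 65.2 with IFN-α and 4404 ± 115.0 with both agents (SD, n = 3). Their make-up differed with treatment. Slfn2 held 79.1 ± 0.70% of these counts with R848, 21.0 ± 0.509% with IFN-α and 29.6 ± 0.252% with both. Slfn5 held 11.2 ± 0.941%, 49.99 ± 0.297% and 34.6 ± 1.71%, and Slfn4 held 0.372 ± 0.234%, 1.76 ± 0.135% and 8.04 ± 0.971%. Counts favour long transcripts, so levels of different genes are compared per kb of annotated exon.

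Per kb, Slfn2 was highest in every group, at 331.4 ± 8.75 CPM with R848, 377.6 ± 16.2 with IFN-α and 784.7 ± 20.8 with both. With R848 it was followed by Slfn5 (12.3 ± 1.12) and Slfn8 (11.2 ± 0.381), whose libraries overlapped, then Slfn9 (2.79 ± 0.327), then Slfn3 (0.733 ± 0.121) and Slfn4 (0.651 ± 0.406), which also overlapped, and Slfn1 with no count. With IFN-α the order after Slfn2 was Slfn5 (236.8 ± 5.85), Slfn8 (82.0 ± 2.82), Slfn9 (72.6 ± 1.40), Slfn4 (13.3 ± 0.860), Slfn3 (11.3 ± 0.402) and Slfn1 (5.57 ± 1.31). None of these neighbours overlapped, but with the longest transcript as length Slfn3 (13.7 ± 0.488) and Slfn4 (13.3 ± 0.860) overlapped. With both agents Slfn5 (240.8 ± 15.5) and Slfn8 (141.1 ± 4.04) were followed by Slfn9 (94.4 ± 2.79) and Slfn4 (89.3 ± 10.6), which overlapped. Slfn1 (15.3 ± 1.42) and Slfn3 (15.2 ± 0.698) came last and overlapped, whereas with the longest transcript as length Slfn3 (18.3 ± 0.837) lay above Slfn1 (15.3 ± 1.42) without overlap.

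**Figure D4:**
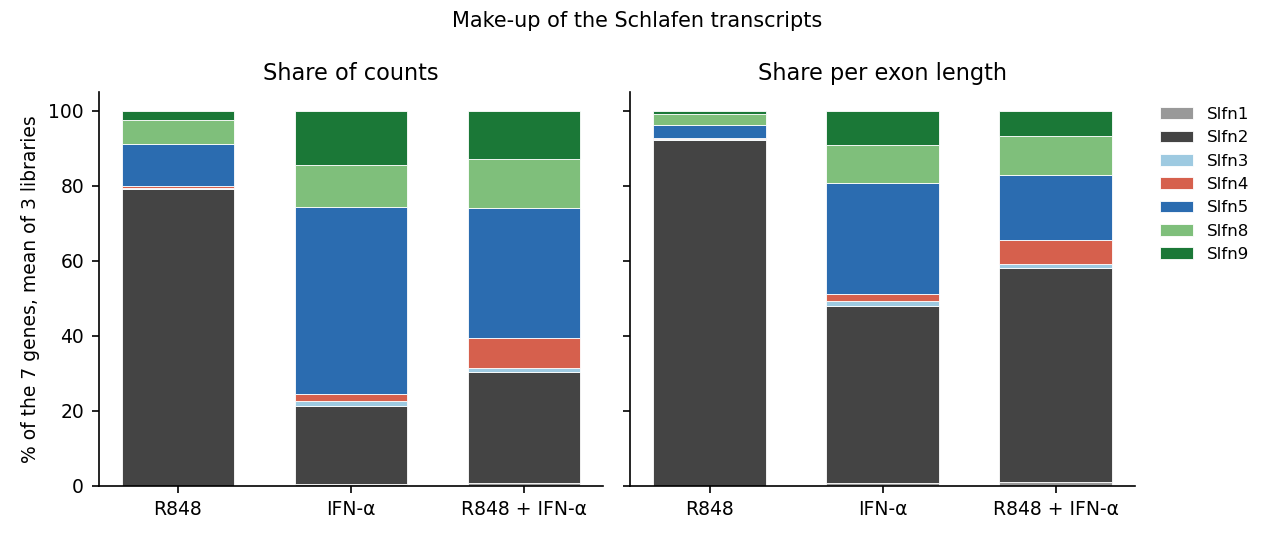
Mean share of each Schlafen gene in the counts of all 7 (left) and in their counts per exon length (right), in percent, for the 3 treatments. Slfn2 fills 79.1% of counts with R848, Slfn5 fills 49.99% with IFN-α, and Slfn4 reaches 8.04% with both agents.

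The other Schlafen rows gave little or no signal apart from Slfn10-ps. This pseudogene was at 14.5, 11.4 and 9.48 CPM under R848, 43.4, 30.4 and 25.4 CPM with IFN-α and 35.9, 27.2 and 38.6 CPM with both agents. Its share of words found in other transcripts was 7.70%, above those of the 7 members. It was lower with R848 than with IFN-α (log2 -1.47 ± 0.21, adjusted p = 8.35e-07 by edgeR) and higher with both agents than with R848 (1.55 ± 0.20). The difference between both agents and IFN-α was 0.07 ± 0.18, with a sign that flipped under 2 scalings. Slfn14, a long member known from red cell and platelet precursors, had 1 count over all 9 libraries, and Slfnl1 had 2, 2 and 1 counts over the groups.

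The genes around the cluster were read in the same fit. Of 17 protein-coding genes within 300 kb of its ends, Slfn14 included, 12 were tested. Between R848 and IFN-α 4 were called higher and 1 lower, between both agents and R848 3 higher and 1 lower, and between both agents and IFN-α 4 higher and 1 lower. Over all genes tested, 18.4, 19.2 and 18.5% were called higher in these comparisons, and 19.0% were called lower in the first. The median log2 fold changes of the 12 neighbours were 0.37, -0.0018 and 0.61. Against R848, both agents were higher for Heatr9 (log2 3.77 ± 0.50), the metalloproteinase gene Mmp28 (2.29 ± 0.41) and the clathrin adaptor gene Ap2b1 (0.36 ± 0.10), and lower for the DNA repair gene Rad51d (-0.82 ± 0.28). Against IFN-α, both agents were higher for these same 3 and for Rffl (1.22 ± 0.12), and lower for Rad51d (-1.18 ± 0.28). Between the single agents Lig3, Rffl, Nle1 and Ap2b1 were higher with R848 and Mmp28 was lower.

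**Figure D5:**
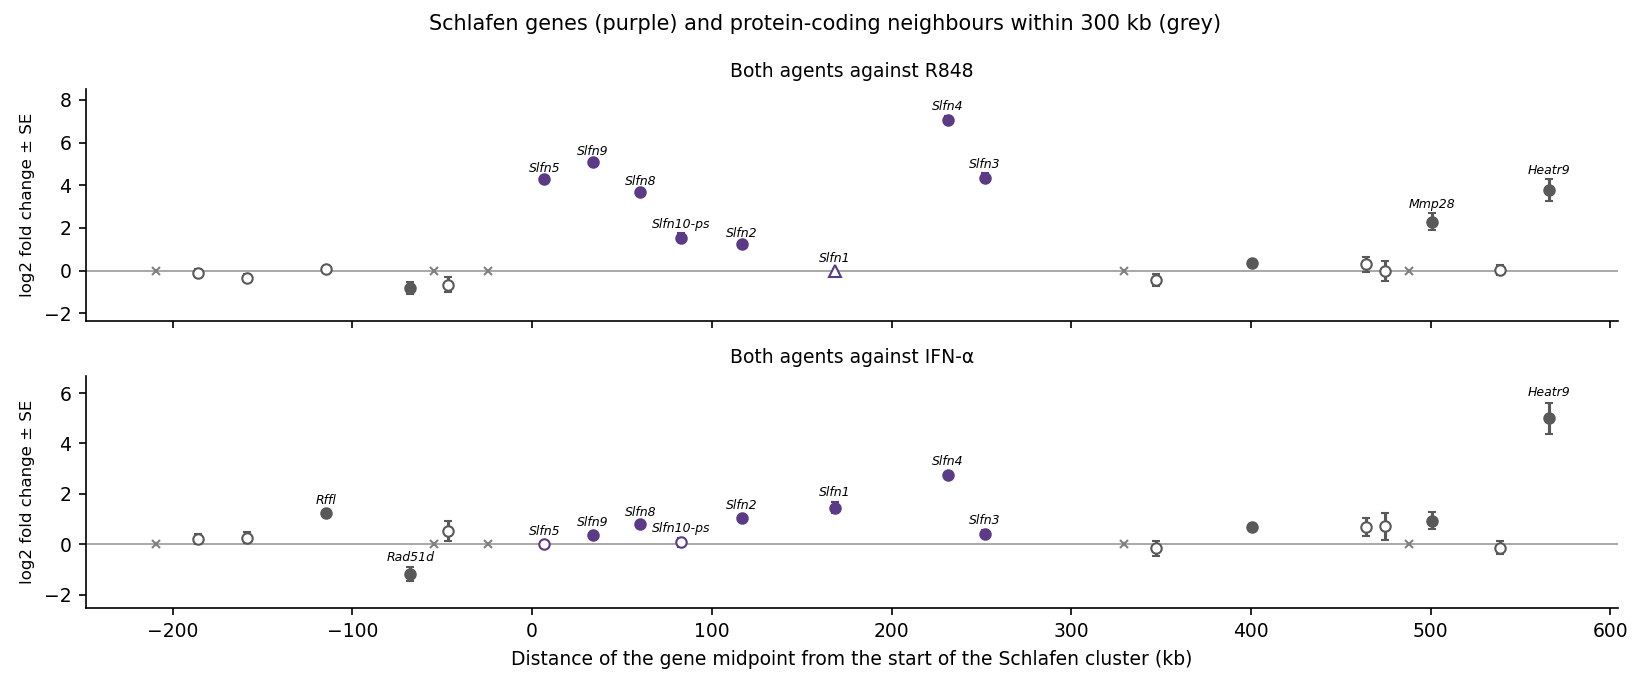
Log2 fold changes with SE for both agents against R848 (top) and against IFN-α (bottom), by distance of each gene's midpoint from the start of the Schlafen cluster in kb. Purple marks Schlafen genes, grey other protein-coding genes, filled an adjusted p under 0.05, a cross an untested gene and a triangle Slfn1, which had no count with R848. In the top panel the tested Schlafen genes with counts under R848 run from 1.24 (Slfn2) to 7.07 (Slfn4). Slfn1, drawn at 0 there, was at least 95.0-fold higher with both agents, against a floor of 3 counts over the R848 group.

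The genes upstream of and parallel to the Schlafens were read from lists of known function. These lists were chosen with earlier results of these data known, so their splits are a description and no independent test. Of 30 interferon-stimulated reference genes, R848 gave a lower level than IFN-α for all 30 (median log2 -4.48), both agents exceeded R848 for all 30 (4.70), and 21 were higher and none lower with both agents than with IFN-α (0.43). That last split was 19 higher and 2 lower with upper-quartile factors, and 11 higher and 5 lower (median 0.12) with library totals alone, which shift the median of all genes by -0.32 there. The largest of these last differences were Ifih1 (1.12 ± 0.09), Gbp3 (1.04 ± 0.10) and Rsad2 (0.82 ± 0.08). The member values were 2.75 for Slfn4, 1.45 for Slfn1 and 1.06 for Slfn2 on the same scale. Of 22 genes of the TLR7 and NF-κB response, 22 were higher with R848 than with IFN-α (median 3.48) and 22 with both agents than with IFN-α (4.52). Between both agents and R848, 13 were higher and 3 lower (0.43), or 10 and 6 with library totals alone. Il1b, for one, stood at 5688 CPM under R848, 4.96 with IFN-α and 6092 with both.

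Of 17 interferon receptor and JAK-STAT genes, 5 were higher and 9 lower under R848 than under IFN-α (median -0.57), 13 higher and 1 lower with both agents than with R848 (1.19), and 10 higher and 1 lower with both agents than with IFN-α (0.36). Library totals alone gave 11 and 3 in the second of these comparisons and 6 and 2 in the third. The receptor gene Ifnar1 was at 333.7 ± 10.4 CPM with R848, 142.4 ± 8.77 with IFN-α and 377.5 ± 36.7 with both. Irf7 (24.1, 900.7 and 1049 CPM) and the feedback protease gene Usp18 (18.6, 1013 and 1046 CPM) were low with R848, as the Schlafen genes other than Slfn2 were. The feedback inhibitor Socs3 stood at 125.0, 6.58 and 215.4 CPM. Of 13 tested genes for transfer RNA cleavage, processing and repair, 1 was higher and 4 lower under R848 than under IFN-α (median -0.29), 3 were higher and 2 lower with both agents than with R848 (-0.01), and none was higher and 3 lower with both agents than with IFN-α (-0.17). Library totals alone gave 1 and 5 in the second of these comparisons and 0 and 6 in the third, and upper-quartile factors 2 and 4 in the second.

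Genes whose profile over the 9 libraries was most like that of each member were found by Euclidean distance between centred log2 CPM profiles among 9948 genes. Closest to Slfn2 were Psme2, Sec23b and Mdm2 (distances 0.28, 0.29 and 0.30), and its nearest member, Slfn8, was at 3.61. Closest to Slfn5 were Herc6, Gbp8 and Fcgr4 (0.22, 0.26 and 0.44). Closest to Slfn9 were Gbp11, Ifi204 and Oas2 (0.29, 0.38 and 0.39), to Slfn8 Parp14, Ehd4 and Slc25a22 (0.34, 0.50 and 0.59), and to Slfn3 Nlrc5, Mnda and Slamf8 (0.33, 0.34 and 0.45). Slfn1 was nearest to Ifih1, Gbp4 and Isg15 (0.64, 0.75 and 1.04). Slfn4 lay farthest from its nearest genes, Ifi205, Serpina3f and Ccl12 (1.07, 1.48 and 1.77), and its nearest member, Slfn1, was at 2.28. This ranking belongs to the distance, which grows with the size of the differences. By Pearson correlation Slfn4 and Ifi205 reached 0.994, and Slfn2 and Psme2 reached 0.991. Ifi205 stood at 5.51, 104 and 518.5 CPM with R848, IFN-α and both agents. A low count adds noise to such distances, so those of Slfn1, Slfn3 and Slfn4 are less exact.

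Markers of other cells moved with some treatments, and their part in the Schlafen differences was not tested. The 11 astrocyte markers summed to 1693 to 1970 CPM with R848, 1320 to 1652 with IFN-α and 2616 to 3661 with both agents. Both agents gave higher levels of 9 of them than R848 did and of 6 than IFN-α did, with none lower, led by Aqp4 (493.6, 279.7 and 1048 CPM). Against R848 this became 5 higher and 0 lower with upper-quartile factors and 3 higher and 1 lower with library totals alone, and against IFN-α 6 and 1, and 3 and 2. Microglia markers summed to 1945 to 2164, 3180 to 3506 and 1911 to 2116 CPM, with Siglech at 0 with both agents. Of 13 tested, 1 was higher and 8 lower under R848 than under IFN-α, 4 higher and 4 lower with both agents than with R848, and 1 higher and 9 lower with both agents than with IFN-α. With library totals alone the second split was 3 and 7 and the third 0 and 9. T cells express several Schlafens, and their part here was not tested either. The 10 of 11 T cell markers with a gene row summed to 9.48 to 19.0 CPM over all libraries, with Cd3g, Cd8a and Cd2 at 0 in every group. In that list only Lck was called (2.11, 7.64 and 8.60 CPM), in both comparisons with R848. Other leukocyte markers summed to 6.16 to 15.8 CPM, with Cd79a, Ncr1 and S100a9 at 0 in every group. Their 1 tested gene, S100a8, was higher with R848 than with IFN-α (log2 1.16 ± 0.25).

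Of 9 tested oligodendrocyte markers (498.5 to 756.9 CPM summed), 3 were lower under R848 than under IFN-α, 1 higher with both agents than with R848, and 2 lower with both agents than with IFN-α. Of 4 tested neuron markers (137.7 to 176.8 CPM), 1 was higher and 1 lower in the first of these comparisons, and 1 was higher in each of the others. Of 8 fibroblast markers (203.9 to 385.7 CPM), 2, 2 and 3 were higher and none lower. Of 3 tested endothelial markers (17.4 to 66.6 CPM), 2 were lower under R848 than under IFN-α, 3 higher with both agents than with R848, and 1 higher and 1 lower with both agents than with IFN-α, with Emcn at 0 throughout. With library totals alone, calls of the oligodendrocyte list for both agents against R848, then against IFN-α, were 1 higher and 3 lower, then 0 and 4. Those of the neuron list were 0 and 1 in each, those of the fibroblast list 0 and 2, then 2 and 0, and those of the endothelial list 3 and 0, then 1 and 2.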

How the data were processed

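Gene counts from 9 RNA-seq libraries were analysed. The authors deposited whole-number read counts per gene, unnormalised, with unstranded, forward and reverse columns. Per the submitters' processing notes, CASAVA 1.8.2, Trimmomatic 0.33, STAR 2.5.1 and DESeq2 were used, with build mm10. The annotation used for counting is not given in those notes or labels. Per the labels' protocols the libraries were directional and depleted of ribosomal RNA. Forward counts were 1.09 to 1.5% of both strands, so the reverse column was used. Rows naming no gene stayed out: reads in no gene were 39.3 to 44.4% of read pairs, multimapping 7.22 to 8.51% and unmapped 19.8 to 26.3%. The ribosomal transcript Rn45s held 13.3 to 26.1% of gene counts.

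Counts were filtered with filterByExpr (minimum count 10, total 15), TMM-scaled and fitted as group means over 9 libraries with edgeR 4.0.16 (limma 3.58.1, R 4.3.3). The common biological coefficient of variation was 0.0955. SE is the absolute log2 fold change over the square root of F, and intervals use the fit's degrees of freedom. Ratios were tested with SciPy 1.17.1 and sequences aligned with Biopython 1.88. The fit was tested on simulated data. Named were all 7 members, the other Schlafen rows, the 3 nearest profiles per member (log2 CPM with a prior count of 2, at least 5 CPM in the highest group), up to 3 called genes per list, and called neighbours; some genes that this rule names are not reported here. Ifnar1 and the single-agent values of Il1b and Ifi205 were added after values were seen. Members and lists were chosen with earlier results of these data known. Alternatives were other scalings, filters, DESeq2 1.42.0, unstranded counts, a replicate block, 2-group fits and leaving out each library. Replicate pairs differed beyond sampling noise (chi-square per degree of freedom 1.92 to 6.27 without Rn45s), so each library counted once. Counting precision limits low values.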

Additional observations from a re-analysis of the deposited data

Results flagged for a closer look

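The forward-strand column, which no comparison used, held more than the 3 counts that a count of 0 allows for each row of the cluster given here. Over the 9 libraries they gave 5 counts for Slfn1 (1.36% of both strands), 80 for Slfn2 (0.333%), 8 for Slfn3 (0.915%), 26 for Slfn4 (0.628%), 132 for Slfn5 (0.460%), 30 for Slfn8 (0.329%), 36 for Slfn9 (0.377%) and 6 for the pseudogene Slfn10-ps (0.799%). The share over all genes was 1.09 to 1.5% per library, so no member's share lay above that range. Slfn5os, annotated on the strand opposite Slfn5 and overlapping it, had 1201 forward counts, which lie on the strand of Slfn5, and 11 reverse counts on its own strand. Its forward counts, summed over libraries of unlike depth, were 34 with R848, 476 with IFN-α and 691 with both agents. By library they were 11, 11 and 12 with R848, 152, 165 and 159 with IFN-α, and 171, 131 and 389 with both agents. The 389 came from combined replicate 3, the deepest library.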

How the results depend on the processing

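Of 76 alternative values for the 4 counts of members called, all were within 1.5 times the reported count. That margin is wide for counts of at most 7, since a fall from 6 to 4 meets it. Leaving out each library gave 6 to 7 members for R848 against IFN-α, 7 for both agents against R848, and 5 to 6 for both agents against IFN-α and for both agents above each single agent. Of 399 alternative member fold changes, 384 kept direction and side of the threshold, 6 were weaker, 6 passed newly and 3 reversed. The reversed ones were Slfn5 for both agents against IFN-α: -0.061 with upper-quartile factors, -0.283 with library totals alone and -0.029 without combined replicate 1, with leave-one-out values up to 0.055. Slfn10-ps in that comparison gave -0.0098 with upper-quartile factors, -0.232 with library totals alone, -0.094 without IFN-α replicate 3 and -0.049 without combined replicate 3, with leave-one-out values up to 0.309. Library totals alone moved the median of all genes to -0.32 for both agents against IFN-α and -0.42 for both agents against R848, so their values are to be read against that shift. The share of calls that were higher fell there from 55.7 to 21.7% and from 53.5 to 19.1%, and with upper-quartile factors to 44.8 and 37.5%. For both agents above each single agent, 5 members were left with upper-quartile factors, without a filter and with DESeq2, and 4 with library totals alone, which also left 4 for both agents against IFN-α. All 63 alternative ratio values, chosen after seeing the data, kept their direction. Counts of 4 to 15 per library limit Slfn3 and Slfn4 under R848. The causes of these changes were not tested.

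Same-numbered libraries showed little shared deviation: correlations of deviations ran from -0.101 to 0.0587 over 9 pairs. The highest was between R848 replicate 1 and IFN-α replicate 1, each of which correlated best with the other. Of the 9 libraries, 0 correlated best with its own number in both other groups. A replicate block left 6 members called for R848 against IFN-α, 7 for both agents against R848, 6 for both agents against IFN-α and 6 above each single agent, and changed no member's call.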
